A study of Mus musculus with 12 samples.

Results

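Plagl1 and imprinted genes tied to it were followed in 4 populations of cells sorted from colon adenomas of 3 mice. The set held 9 genes: Plagl1, Igf2, H19, Cdkn1c, Peg3, Mest, Dlk1, Grb10 and Igf2r. Plagl1 was chosen by its high signal in Mex3a-positive cells of these same arrays, and the others as imprinted genes linked to it. All members and the gene lists were chosen with earlier results of these data known. Their tests may therefore not be independent of that choice. Of the 9 genes, 6 had probe sets of their own, 11 probe sets among the 28898 on the array with a single gene symbol. Mest and Igf2r had only probe sets that the annotation also gives to a second gene, and H19 was not listed in the annotation used here. Of the 11 probe sets, 6 passed a filter on low signals, 1 for each of Plagl1, Cdkn1c, Peg3, Grb10, Igf2 and Dlk1, and the other 5 are given by their values.

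Sorting split the cells by Mex3a, an RNA-binding protein, and by Lgr5, the receptor by which crypt stem cells are recognised. Both Lgr5+ and Lgr5- cells were taken from the Mex3a+ and the Mex3a- fractions, with 3 arrays for each population. Each mouse (MKL347, MKL358 and MKL367) gave 1 array per population from a pool of its adenomas. Sorted pools held 500 cells for MKL358 and 2000 cells for the other two mice. All 3 mice carry the label ki/+, whose allele, like their age and strain, is not given in the sources used here. The values are log2 signals, on which a difference of 1 is a doubling, and their number of arrays limits the precision.

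Imprinted genes are transcribed mainly from the copy inherited from 1 parent. Plagl1, also called Zac1, is a paternally expressed zinc finger transcription factor that can halt the cell cycle, and it has been described as a hub that regulates other imprinted genes of embryonic growth. Many of those genes act on growth through insulin-like growth factor signalling or on exit from the cell cycle. The arrays measure both parental copies together and do not show which copy was transcribed.

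Promoter windows are shown for Peg3, since it is the member whose window holds a match to a GC-rich site described for Plagl1, and for Plagl1 itself. Both come from RefSeq (GRCm38.p6), run 5′ to 3′ along the strand of the gene, and cover the 250 bases before its start. Capitals mark the site GGGGCCCC, which reads the same on both strands. The Peg3 window is chr7:6730420-6730669 on the minus strand, and the Plagl1 window is chr10:13090582-13090831 on the plus strand.
Peg3: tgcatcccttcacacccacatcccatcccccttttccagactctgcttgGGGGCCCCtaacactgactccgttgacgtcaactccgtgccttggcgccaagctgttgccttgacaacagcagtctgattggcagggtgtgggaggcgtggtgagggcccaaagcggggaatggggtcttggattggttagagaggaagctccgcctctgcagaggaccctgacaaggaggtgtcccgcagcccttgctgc
Plagl1: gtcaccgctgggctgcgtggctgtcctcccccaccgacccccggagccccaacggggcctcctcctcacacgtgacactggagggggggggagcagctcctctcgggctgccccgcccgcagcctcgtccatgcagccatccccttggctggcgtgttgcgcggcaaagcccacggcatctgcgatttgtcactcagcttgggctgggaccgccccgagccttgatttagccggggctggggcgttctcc
The match in Peg3 began 201 bases before the start. It was the only one in 13 windows of 7 members with an entry, and 0.889% of all 32851 windows hold the site. The Plagl1 window holds no match and has a GC content of 70.4%, against a median of 52.4% over all windows. A second motif, CTTTGA on either strand, was in 1 of the 13 windows, of Igf2, and in 13.8% of all windows. No array value bears on these letters, and nothing was measured about binding there.

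Transcripts of both sort markers went with the labels in 3 of 3 mice. The Mex3a signal was 0.69 higher on the log2 scale where the label says positive (SE 0.096, limma adjusted p = 9.28e-05), and the Lgr5 signal 1.55 higher (SE 0.10, adjusted p = 1.52e-05). All 12 epithelial markers passed the filter, and 11 of them were called lower in Mex3a+ cells, with a median difference of -0.65 over the list. Epcam, an adhesion protein of epithelium, had mean log2 signals of 11.53 in Mex3a+ and 11.69 in Mex3a- cells, and Cdx1, an intestinal transcription factor, 8.14 and 9.45. Arrays of 1 mouse deviated together, so the mouse number was a block in the fit, except where the text says without the block. Over 19883 probe sets tested, 39.9% were called between Mex3a+ and Mex3a- cells at an adjusted p under 0.05, 15.9% higher and 24% lower, and the median difference was -0.012.

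Plagl1 was high in both Mex3a+ populations of every mouse. In Mex3a+ Lgr5+ cells its log2 signal was 8.90 in MKL347, 9.06 in MKL358 and 9.62 in MKL367. In Mex3a+ Lgr5- cells the same mice gave 9.03, 9.03 and 9.77. In Mex3a- Lgr5+ cells the signals were 6.98, 6.84 and 7.87, and in Mex3a- Lgr5- cells 6.73, 6.64 and 8.02. No Mex3a- array reached the lowest Mex3a+ array, and mouse MKL367 was the highest of the 3 in every population. The mean difference was 2.06 (SD 0.28, n = 3 mice), a 4.16-fold ratio, with 2.11 in MKL347, 2.31 in MKL358 and 1.75 in MKL367. Because this contrast chose the gene, it is given without a test. In pools of sorted cells, fewer cells of a type and less RNA per cell cannot be told apart.

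Lgr5 status did not enter the choice of Plagl1, and its effect was tested. Plagl1 differed by 0.01 between Lgr5+ and Lgr5- cells (SE 0.088, 95% interval -0.18 to 0.20, limma adjusted p = 0.978). The Mex3a difference was 1.97 (SD 0.23) in Lgr5+ cells and 2.15 (SD 0.35) in Lgr5- cells. The interaction, the first of these minus the second, was -0.18 (SE 0.18, 95% interval -0.56 to 0.20, limma adjusted p = 0.849). It is made of the 2 Mex3a differences, and Plagl1 was chosen by its Mex3a contrast. The test of the interaction is therefore not independent of that choice, and nothing is read from it. The group means of Plagl1 were 9.20 and 9.28 in Mex3a+ cells, and 7.23 and 7.13 in Mex3a- cells. Their parting by Mex3a status is what chose the gene.

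The second Plagl1 probe set lay near the lower end of the signal range and passed the filter level of 4.40 on 2 arrays. Its log2 signals were 4.08 to 5.33 in the 6 Mex3a+ arrays and 3.41 to 3.89 in the 6 Mex3a- arrays, with no overlap. Its mean difference was 0.83 (SD 0.54, n = 3 mice), above 0 in all 3, and again is a description. The 2 probe sets parted the populations the same way but by different amounts. The name of the first set ends in x_at, the manufacturer's mark for probes that may share sequence with other transcripts, and the part of such transcripts in its signal was not tested.

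**Figure D1:**
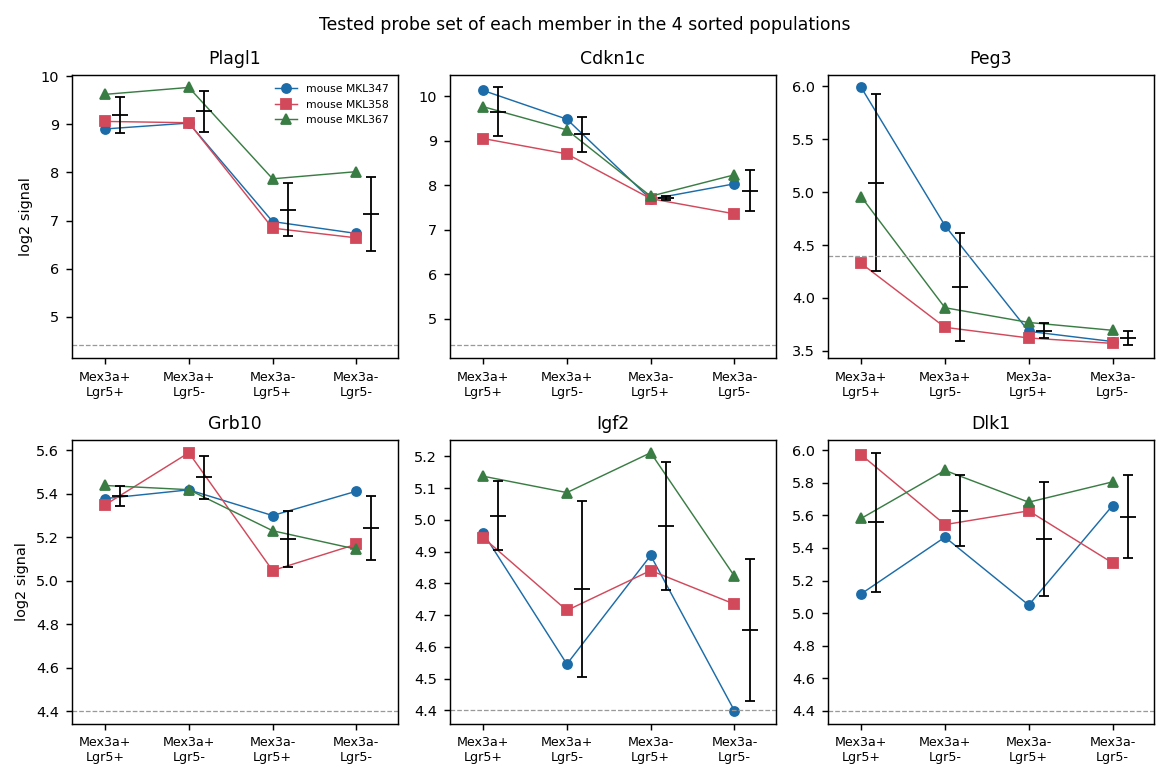
Log2 signal of the tested probe set of 6 genes in the 4 sorted populations, with each mouse as a joined series and the group mean ± SD (n = 3) as black bars; y axes differ between panels, and the dashed line is the filter level of 4.40. Plagl1 and Cdkn1c lie higher in all 6 Mex3a+ arrays than in all 6 Mex3a- arrays, Peg3 is highest in Mex3a+ Lgr5+ cells, and Grb10, Igf2 and Dlk1 overlap between Mex3a+ and Mex3a- arrays.

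Cdkn1c, the maternally expressed inhibitor of cyclin-dependent kinases also called p57Kip2, was higher in Mex3a+ cells too. In Mex3a+ Lgr5+ cells its log2 signal was 10.13 in MKL347, 9.05 in MKL358 and 9.77 in MKL367. In Mex3a+ Lgr5- cells it was 9.49, 8.71 and 9.25. Both sets of values lay above every Mex3a- array. In Mex3a- Lgr5+ cells the signals were 7.69, 7.70 and 7.76, the tightest group of this gene, and in Mex3a- Lgr5- cells 8.03, 7.36 and 8.24. Over both Lgr5 states Cdkn1c rose 3.04-fold (log2 difference 1.60, SE 0.11, limma adjusted p = 4.17e-07; 1.95, 1.35 and 1.51 in the 3 mice in the same order). It remained called in all 24 alternatives, at adjusted p from 1.55e-07 to 0.000284. Like the other members, Cdkn1c was chosen with earlier results of these data known, which may favour its test.

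Cdkn1c rose in both Lgr5 states. In Lgr5+ cells the difference was 1.94 (SE 0.16, limma adjusted p = 8.63e-06) and in Lgr5- cells 1.27 (SE 0.16, adjusted p = 7.60e-05). In Lgr5+ cells 8.86% of probe sets were called higher with Mex3a, and in Lgr5- cells 10.9%. The interaction for Cdkn1c was 0.67 (SE 0.23), with an unadjusted p of 0.0116 and a limma adjusted p of 0.476, and was not called. It was 0.992 in MKL347 and 1.003 in MKL367 but 0.0046 in MKL358. Between Lgr5+ and Lgr5- cells Cdkn1c differed by 0.17 (SE 0.11, adjusted p = 0.566) on average, and by 0.50 (SE 0.16, adjusted p = 0.426) within Mex3a+ cells.

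Peg3, a paternally expressed zinc finger protein, was above the filter level on 3 arrays, all Mex3a+. In Mex3a+ Lgr5+ cells its log2 signal was 5.99 in MKL347, 4.33 in MKL358 and 4.96 in MKL367. In Mex3a+ Lgr5- cells it was 4.68, 3.72 and 3.91. Mouse MKL347 gave the highest value in both. The 6 Mex3a- arrays held 3.57 to 3.77, a narrow band at the low end of the array. The lowest Mex3a+ Lgr5- array, at 3.72, lay within that band, so the 6 Mex3a+ and 6 Mex3a- arrays overlapped.

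Averaged over the Lgr5 states, the log2 signal of Peg3 was 0.94 higher with Mex3a (SE 0.17, limma adjusted p = 0.000773). All 6 Mex3a- arrays lay below the filter level, so no fold is given. The differences were 1.70 in MKL347, 0.43 in MKL358 and 0.70 in MKL367, with an SD of 0.67 over these mice. All populations share 1 estimate of the spread in limma. The group SD of Peg3 was 0.84 in Mex3a+ Lgr5+ and 0.51 in Mex3a+ Lgr5- cells, but 0.07 in either Mex3a- population. The SE and adjusted p of Peg3 may therefore understate its spread over mice. Since Peg3 entered the test only through Mex3a+ arrays, the filter favoured such a difference. Without the filter its adjusted p was 0.000811. Without mouse MKL347 and without the filter, a setting added after the data were seen, the difference was 0.57 (adjusted p = 0.00166).

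The rise of Peg3 was called in Lgr5+ cells, at 1.40 (SE 0.24, limma adjusted p = 0.00132, and 0.00140 without the filter), and not in Lgr5- cells, at 0.49 (SE 0.24, adjusted p = 0.153). The SD over the 3 mice was 0.82 in Lgr5+ cells and 0.53 in Lgr5- cells. Of the 3 arrays by which Peg3 passed the filter, the Mex3a+ Lgr5+ arrays of MKL347 and MKL367 are on the high side of the comparison in Lgr5+ cells. The other, the Mex3a+ Lgr5- array of MKL347, is on the high side of that in Lgr5- cells. The filter thus favoured the called effect by more arrays than the effect not called. Whether the Mex3a effects in Lgr5+ and Lgr5- cells differ was tested by the interaction, which was 0.91 (SE 0.35). It was above 0 in 3 of 3 mice, with an unadjusted p of 0.0205 and a limma adjusted p of 0.522, and so did not pass. Within Mex3a+ cells Peg3 was 0.99 higher with Lgr5 (SE 0.24, adjusted p = 0.289), and within Mex3a- cells 0.07 higher (SE 0.24, adjusted p = 0.940). The second Peg3 probe set did not pass the filter. It held 3.45 to 5.27 in Mex3a+ Lgr5+ cells, 3.21 to 3.97 in Mex3a+ Lgr5- cells and 3.03 to 3.36 over the 6 Mex3a- arrays. Its Mex3a difference was 0.72 (SD 0.72, n = 3 mice; limma adjusted p = 0.0115 without the filter), with MKL347 highest again.

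**Figure D2:**
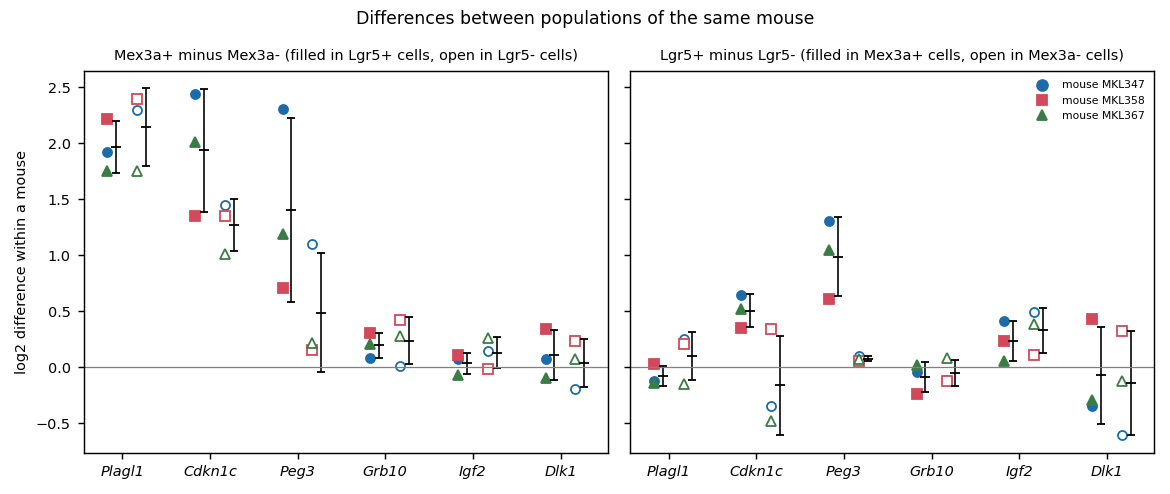
Log2 differences between populations of the same mouse for 6 genes: Mex3a+ minus Mex3a- on the left and Lgr5+ minus Lgr5- on the right, each point 1 mouse and black bars the mean ± SD (n = 3). All 6 Mex3a differences of Plagl1 lie at 1.75 or above, those of Cdkn1c run from 1.01 to 2.44, and those of Peg3 from 0.15 to 2.31.

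Grb10 encodes an adaptor that binds the insulin and IGF1 receptors and dampens their signalling. Its tested probe set gave log2 signals of 5.35 to 5.44 in Mex3a+ Lgr5+ cells and 5.42 to 5.59 in Mex3a+ Lgr5- cells. In Mex3a- Lgr5+ cells it gave 5.05 to 5.30, and in Mex3a- Lgr5- cells 5.14 to 5.41. Within each Lgr5 state the 2 ranges did not overlap, but they did over both states together. Grb10 was 1.16-fold higher in Mex3a+ cells (log2 difference 0.21, SE 0.075, limma adjusted p = 0.0358), with 0.042 in MKL347, 0.36 in MKL358 and 0.24 in MKL367.

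That call was lost in 14 of 23 alternatives. Without the block its adjusted p was 0.0529, and over the alternatives it ranged from 0.0237 to 0.222. It was lost without mouse MKL358 (0.14, limma adjusted p = 0.222) and without mouse MKL367 (0.20, adjusted p = 0.175). Leaving out any single array of MKL358, or the Mex3a+ Lgr5+, Mex3a+ Lgr5- or Mex3a- Lgr5- array of MKL367, also ended it, at adjusted p from 0.0533 to 0.102. The other 2 Grb10 probe sets stayed below the filter level on all 12 arrays, between 3.45 and 4.15, with Mex3a differences of 0.08 and 0.15 (SD 0.23 and 0.16, n = 3 mice).

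Igf2, the paternally expressed growth factor of fetal growth, was low on these arrays. Its tested probe set gave log2 signals of 4.94 to 5.14 in Mex3a+ Lgr5+ cells and 4.55 to 5.09 in Mex3a+ Lgr5- cells. In Mex3a- Lgr5+ cells it gave 4.84 to 5.21 and in Mex3a- Lgr5- cells 4.40 to 4.82. The Mex3a+ and Mex3a- arrays overlapped, at a difference of 0.08 (SE 0.072, 95% interval -0.07 to 0.24, limma adjusted p = 0.394). The second Igf2 probe set, which did not pass the filter, differed by 0.20 with Mex3a (SD 0.19, n = 3 mice). Its limma adjusted p was 0.0507 without the filter. With the mean of all probe sets per gene Igf2 differed by 0.14 (limma adjusted p = 0.0817).

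Along the Lgr5 axis Igf2 was 0.28 higher in Lgr5+ cells (SE 0.072), at 0.45 in MKL347, 0.17 in MKL358 and 0.22 in MKL367. The limma adjusted p was 0.0805, with an unadjusted p of 0.00189, and it was not called. It passed in 3 of 23 alternatives, at adjusted p from 0.0407 to 0.0487, and reached 0.770 without the block. The second Igf2 probe set, below the filter, gave a like difference of 0.31 (SD 0.077, n = 3 mice), above 0 in all 3. Its log2 signals ran from 4.06 to 4.62 in Lgr5+ cells and from 3.57 to 4.49 in Lgr5- cells.

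Dlk1, a paternally expressed transmembrane protein with EGF-like repeats, did not part the populations. Its log2 signals ran from 5.12 to 5.97 in Mex3a+ Lgr5+ cells, 5.47 to 5.88 in Mex3a+ Lgr5- cells, 5.05 to 5.68 in Mex3a- Lgr5+ cells and 5.31 to 5.81 in Mex3a- Lgr5- cells. The Mex3a difference was 0.07 (SE 0.13, 95% interval -0.20 to 0.34, limma adjusted p = 0.692), below 0 in 2 mice. The Lgr5 difference was -0.11 (SE 0.13, adjusted p = 0.791).

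Among the 5 tested members other than Plagl1, Cdkn1c, Peg3 and Grb10 were called higher in Mex3a+ cells and none lower, where 15.9% of all probe sets were called higher and 24% lower. Peg3 was among those tested only through its Mex3a+ arrays, and Grb10's call did not hold in most alternatives, so nothing is read from this count. In Lgr5+ cells Cdkn1c and Peg3 were called higher, where 8.86% of all probe sets were, and in Lgr5- cells Cdkn1c alone, where 10.9% were. The entry of Peg3 through its Mex3a+ arrays bears on these counts too, and nothing is read from them. For the Lgr5 effect limma called 0 of 6 members on average, where 1.62% of all probe sets were called, and 2 of the 6, Igf2 and Peg3 (0.53, SE 0.17, adjusted p = 0.166), had an unadjusted p under 0.05, as had 2729 of the 19883 probe sets. Within Mex3a+ cells 0.0453% of probe sets and 0 members were called for Lgr5, and within Mex3a- cells 1.5% and 0 members. In each of these states Igf2 was among the members with an unadjusted p under 0.05 (differences of 0.23 and 0.33), joined by Cdkn1c and Peg3 within Mex3a+ cells. Peg3 passed the filter mainly by Mex3a+ Lgr5+ arrays. These are on the high side of the Lgr5 effect on average, of that within Mex3a+ cells and of the interaction, so nothing is read from Peg3 in these comparisons. Over all probe sets 1620 had such a p within Mex3a+ cells and 2804 within Mex3a- cells. The interaction was called for 0% of all probe sets, while 1615 of 19883 had an unadjusted p under 0.05, Cdkn1c and Peg3 among them, and the fit without the block also called 0.

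**Figure D3:**
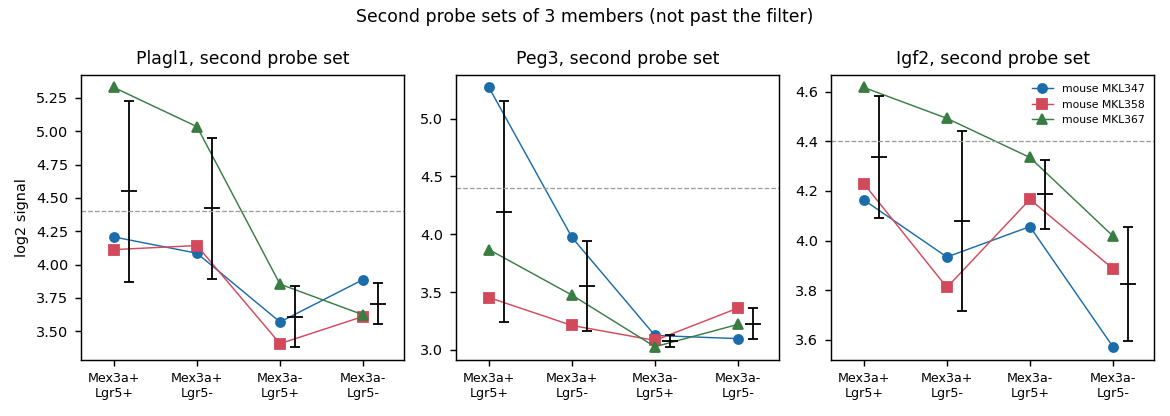
Log2 signal of the second probe sets of Plagl1, Peg3 and Igf2 in the 4 populations, drawn as for the tested probe sets (joined mice, mean ± SD in black, n = 3, dashed filter level of 4.40). The Plagl1 set holds 4.08 to 5.33 in Mex3a+ and 3.41 to 3.89 in Mex3a- arrays, Peg3 is highest in the Mex3a+ Lgr5+ array of MKL347 at 5.27, and Igf2 overlaps between Mex3a+ and Mex3a- arrays.

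Other imprinted genes were called in both directions with Mex3a, in shares near those of all probe sets. Of 71 genes listed as imprinted in the mouse, 53 had a probe set and 35 were tested by the probe set of highest mean. Whether any of them is imprinted in these cells was not measured. Of these 35, 4 rose, 8 fell and 23 were not called, where 15.9% of all probe sets rose and 24% fell. The median difference was -0.03, against -0.012 over all probe sets. Atp10a, a phospholipid flippase, rose by 1.46 (SE 0.11, limma adjusted p = 4.96e-07), and Slc38a4, an amino acid transporter, by 1.10 (SE 0.11, adjusted p = 5.86e-06). Ppp1r9a, which binds actin and protein phosphatase, rose by 0.39 (SE 0.059), and Airn, the noncoding RNA that overlaps Igf2r on the other strand, by 0.29 (SE 0.068). Ano1, a calcium-activated chloride channel, fell by 0.47 (SE 0.049), and Pon2, a lactonase, fell by 0.75 (SE 0.083). Ddc, which makes dopamine and serotonin from their precursors, fell by 0.83 (SE 0.12), and Dhcr7, the last enzyme of cholesterol synthesis, fell by 0.37 (SE 0.055). Each of these 8 kept its direction in all 3 mice, and the adjusted p of the 6 given without one was at most 0.00388. On the Lgr5 axis Kcnq1ot1, a noncoding RNA of the imprinted domain that holds Cdkn1c, rose by 0.38 (SE 0.075, limma adjusted p = 0.0277), and 34 of 35 were not called.

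Of 21 genes described in the literature as regulated by Plagl1, 17 had a probe set and 13 were tested. With Mex3a 3 rose, 4 fell and 6 were not called, at a median of -0.03, beside 39.9% of all probe sets called, 15.9% higher and 24% lower. Tcf4, a basic helix-loop-helix factor that is not the Wnt effector Tcf7l2, rose by 1.03 (SE 0.063, limma adjusted p = 1.45e-07), and Slc38a4 and Ppp1r9a, both also imprinted, are the other 2. Pparg, a nuclear receptor of lipid metabolism, fell by 0.95 (SE 0.094, adjusted p = 6.07e-06). Cdkn1a, the cell cycle inhibitor p21, fell by 0.33 (SE 0.053, adjusted p = 0.000290), and Krt14, a keratin, fell by 1.15 (SE 0.20, adjusted p = 0.000443). Meg3, a maternally expressed noncoding RNA of the domain of Dlk1, fell by 0.83 (SE 0.16, adjusted p = 0.00112). Without the block Cdkn1a (limma adjusted p = 0.116) and Krt14 (0.0516) were not called. Cdkn1a and Cdkn1c, inhibitors of the same kinase family, were thus called in opposite directions with Mex3a. With Lgr5 Cdkn1a fell by 0.41 (SE 0.053, limma adjusted p = 0.00262). Plagl2, the tested relative of Plagl1 in the PLAG family, differed by -0.08 with Mex3a (SE 0.053, adjusted p = 0.281) on average, and Plag1 did not pass the filter. In Lgr5+ cells Plagl2 fell by 0.23 (SE 0.075, limma adjusted p = 0.0442), and in Lgr5- cells it differed by 0.08 (SE 0.075, adjusted p = 0.461). The difference between the 2 was not called (interaction -0.31, SE 0.11, limma adjusted p = 0.476).

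In the insulin-like growth factor axis, the pathway on which Igf2, Igf2r and Grb10 act, 18 of 24 listed genes were tested. With Mex3a 6 rose, 2 fell and 10 were not called, at a median of 0.11. Of all probe sets 39.9% were called, 15.9% higher and 24% lower, and whether the list departs from these shares was not tested. Igf1, a ligand of the same receptor as Igf2, rose by 1.17 (SE 0.12, limma adjusted p = 9.75e-06), and Irs1, an adaptor below that receptor, rose by 0.96 (SE 0.11, adjusted p = 1.90e-05). Akt2, a kinase of the pathway, rose by 0.24 (SE 0.046), and Igfbp4, a binding protein that holds the ligands, by 0.24 (SE 0.051). Pik3r1, a regulatory subunit of PI3 kinase, fell by 0.41 (SE 0.062), these 3 at adjusted p of at most 0.00210, and Akt1 fell by 0.17 (SE 0.057, limma adjusted p = 0.0326). Akt1 was not called without the block (limma adjusted p = 0.315), without mouse MKL347 (0.157), without mouse MKL367 (0.103) or after a further quantile normalization, where it fell by 0.073 (0.320). Its call was also lost without the intensity trend (0.0699) and on leaving out any of several single arrays (0.0515 to 0.102). Without the block 4 genes of the list rose and 1 fell.

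On the Lgr5 axis, where 1.62% of all probe sets were called, 3 of the 18 rose and none fell. Igf1r, the receptor for both ligands, rose by 0.48 (SE 0.078, limma adjusted p = 0.0115), Igf1 by 0.59 (SE 0.12, adjusted p = 0.0359) and Pik3r1 by 0.29 (SE 0.062, adjusted p = 0.0398). Pik3r1 was called lower with Mex3a and higher with Lgr5. All Lgr5 calls of the lists, those of Kcnq1ot1, Cdkn1a, Igf1, Igf1r, Pik3r1 and Trim28, were lost without the block, at limma adjusted p from 0.165 to 0.829. They were lost as well without mouse MKL347, at 0.0525 to 0.197. Each except Cdkn1a was lost without mouse MKL367 too, at 0.0910 to 0.338, and Kcnq1ot1, Pik3r1 and Trim28 without mouse MKL358, at 0.0838 to 0.155.

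Of the factors that set or keep imprints, 12 of 14 listed genes were tested, and with Mex3a 3 rose, 1 fell and 8 were not called, at a median of 0.03. Of all probe sets 39.9% were called, 15.9% higher and 24% lower. Dnmt3a, a DNA methyltransferase that sets new marks, rose by 0.59 (SE 0.056, limma adjusted p = 3.79e-06), and Zfp445, a zinc finger protein that keeps imprints, rose by 0.31 (SE 0.061, adjusted p = 0.00113). Dnmt3b rose by 0.20 (SE 0.072, limma adjusted p = 0.0463). Its call was lost without the block (0.131) and without mouse MKL347 (0.304), MKL358 (0.116) or MKL367 (0.0668). The call of Dnmt3b was also lost without the filter (0.0609), after quantile normalization (0.0985) or median centring (0.0926), and on leaving out most single arrays. With the filter at the 60th percentile Dnmt3b was not tested. Dnmt1, which copies methylation after replication, fell by 0.30 (SE 0.073, limma adjusted p = 0.00572), and was not called without the block (0.0854). Trim28, the corepressor recruited by imprint-keeping zinc finger proteins, rose by 0.21 with Lgr5 (SE 0.042, limma adjusted p = 0.0250).

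**Figure D4:**
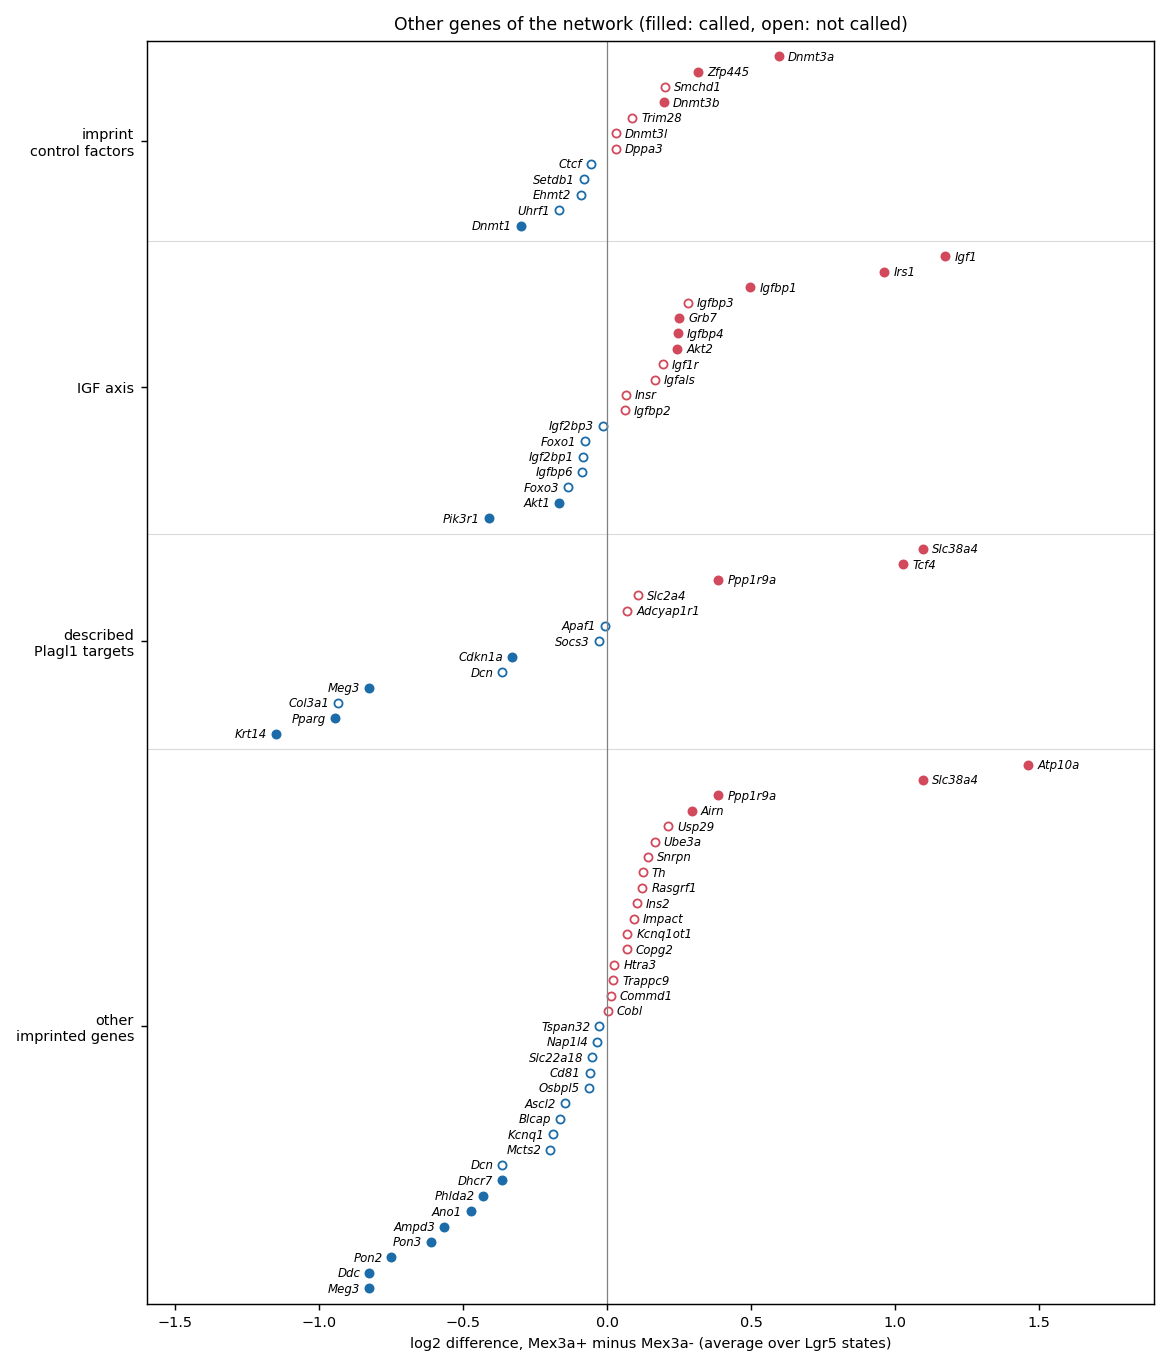
Log2 difference between Mex3a+ and Mex3a- cells for the tested genes of 4 lists around Plagl1, 1 point per gene in order of its value within a list, filled where limma called it at an adjusted p under 0.05 and open otherwise. Values run from -1.15 for Krt14 to 1.46 for Atp10a, and genes on both sides of 0 are called in each list.

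Over the 12 arrays, Plagl1's pattern was most like those of Apcdd1, an inhibitor of Wnt signalling (Pearson r = 0.988), Atp6v0e2, a subunit of the proton pump (0.981), and Pnliprp2, a lipase (0.978). Next came Tbx3, a T-box transcription factor (0.976), Gsdma, a gasdermin (0.973), and Pdp2, a phosphatase of the pyruvate dehydrogenase complex (0.973). The most opposed patterns were those of Capn7, a calpain (-0.985), Akap1, a mitochondrial kinase anchor (-0.981), Oxct1, an enzyme of ketone use (-0.976), and Cilk1, a kinase of cilia (-0.976). The 12 arrays are 4 populations of the same 3 mice, so these values are a description. Plagl1 was also chosen by its Mex3a contrast. Genes that differ with Mex3a, as 39.9% of probe sets were called to, therefore tend towards either end of this ranking beforehand. Among members Cdkn1c was the most like Plagl1 (r = 0.869, rank 300 of 12594 genes), followed by Grb10 (0.637, rank 1510) and Peg3 (0.575, rank 1921). Igf2 (0.413, rank 3054) and Dlk1 (0.319, rank 3717) came last. By ranks of the arrays, Peg3 and Cdkn1c both had a Spearman rho of 0.790 with Plagl1, and no link to Plagl1 is read from these values.

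Markers of cell types also differed between the sorted populations. Of 12 epithelial markers, 11 fell with Mex3a and Krt18 rose, and their mean log2 level per array was 9.81 to 10.24 in Mex3a+ and 10.53 to 10.81 in Mex3a- cells. Of 11 tested fibroblast and smooth muscle markers, 3 rose with Mex3a, namely Vim (1.98, SE 0.10), Acta2 (0.42, SE 0.13) and Fbln1 (0.29, SE 0.052), while the collagens Col1a1 (-0.25, SE 0.33) and Col3a1 (-0.93, SE 0.61) and Dcn (-0.36, SE 0.30) were not called. The mean level of the 18 markers with a probe set was 5.23 to 5.33 in Mex3a+ arrays and 5.03 to 5.87 in Mex3a- arrays. The highest, 5.87, was the Mex3a- Lgr5+ array of MKL367, on which Plagl1 stood at 7.87, Cdkn1c at 7.76 and Peg3 at 3.77. On the other Mex3a- array of MKL367 Plagl1 stood at 8.02, and on the Mex3a- arrays of MKL347 and MKL358 at 6.64 to 6.98. Cdkn1c ran from 7.36 to 8.24 over the other Mex3a- arrays, and the value of Peg3 was the highest of the 6. These values come from a single array of MKL367, and the part of fibroblasts in them was not tested.

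Of 11 tested endothelial markers, Flt1 (1.08, SE 0.15) and Cdh5 (0.30, SE 0.11) rose with Mex3a, and the mean level of the list was 4.62 to 4.66 in Mex3a+ and 4.41 to 4.63 in Mex3a- arrays. Of 8 tested myeloid markers 3 fell, at mean levels of 5.03 to 5.19 and 5.04 to 5.57. Of 5 tested neutrophil markers 4 fell, at 4.45 to 5.29 and 4.63 to 6.32, with the 4 arrays of MKL358 the highest of their populations. None of the 6 tested lymphocyte markers was called. With Lgr5, 3 of the 11 fibroblast markers rose on average, and no marker of the other lists was called. Within Mex3a- cells 3 fibroblast markers were called, and within Mex3a+ cells 0. In Mex3a- cells the mean level of that list was 5.87 with Lgr5 and 5.03 without in MKL367. It was 5.11 and 5.14 in MKL347, and 5.08 and 5.16 in MKL358. The alternatives were not run for the markers. The part of these cell types in the values of Plagl1, Cdkn1c, Peg3 and Grb10 was not tested.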

How the data were processed

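The deposited values are log2 signals of an Affymetrix mouse array with 45141 probe sets and 12 arrays, made with RMA per the submitters' processing notes; which version was run is not given in the sources used here. No further normalization was applied. Gene names came from GEO's platform annotation: 28898 probe sets with 1 symbol were kept, and 551 with several and 104 controls were left out. Probe sets above the 40th percentile of all values (4.40) on at least 3 arrays were tested, 19883 in all.

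The model was fitted in limma 3.58.1 (R 4.3.3) to each probe set, with a mean for each population, the mouse number as a block and an intensity trend in the empirical Bayes step. Tests were 2-sided with Benjamini-Hochberg adjustment over all tested probe sets, and every adjusted p is from this fit unless stated. Errors are limma's standard errors, or the SD over 3 mice. The mouse numbers in the sample titles gave the pairing: with group means removed, correlations were 0.345 to 0.689 within a mouse (18 pairs) and -0.697 to 0.154 between mice (48 pairs). The median log2 signal of an array was 4.86 to 4.92.

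The members and gene lists were chosen with earlier results of these data known. List genes were named by rule, up to 4 called per direction with the smallest p, each by its probe set of highest mean; likeness named the 6 highest and 4 lowest correlations with Plagl1, clones and gene models skipped. The fit was tested on simulated data. Alternatives were no block, no filter, a 60th percentile filter, further quantile normalization, median centring, 1 probe set or the mean of all per gene, no trend, array weights, and omission of each mouse or single array. Figures were drawn with matplotlib 3.10.9.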

Additional observations from a re-analysis of the deposited data

How the results depend on the processing

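The count of members called higher with Mex3a on average was 3 of 5. It fell to 1 with the filter at the 60th percentile, which tested 2 of the 5, and to 1 with probe sets averaged per gene, and it ranged from 1 to 3 when a mouse or an array was left out. It was 1 without mouse MKL367 and without its Mex3a+ Lgr5+ array, where Peg3 no longer passed the filter and Grb10 was not called. In Lgr5+ cells the count of 2 fell to 1 in the same 2 settings and ranged from 1 to 2 over the arrays and mice left out, because Peg3 was then not tested. When tested without the filter, with settings added after the data were seen, Peg3 was called each time (average difference 0.57 to 1.20). The Lgr5 count of 0 became 1, Igf2, with the mean of all probe sets and with array weights, and ranged from 0 to 1 over those left out, being 1 without the Mex3a- Lgr5- array of MKL358. Of the values of single genes under the alternatives, the added settings of Peg3 among them, 394 kept their direction and, where tested, their side of the threshold. Of the rest, 14 lost a call (all of Grb10), 3 gained one, 23 near 0 changed sign and 1 moved. Plagl1's Mex3a difference has no test, and was counted as kept if it changed by less than its SD over mice. The value that moved was this difference, at 1.44 with the mean of all probe sets.

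The changes of sign were in values that no setting called. Plagl1's Lgr5 difference was -0.0105 after quantile normalization and ranged from -0.0492 to 0.102 over the mice and arrays left out. Its interaction was 0.0230 with the mean of all probe sets, where its Mex3a difference was 1.44. Over the same omissions Dlk1 ranged from -0.0489 to 0.172 for Mex3a, from -0.344 to 0.0821 for Lgr5 and from -0.172 to 0.293 for the interaction; the interaction ranged from -0.207 to 0.0238 for Igf2 and from -0.116 to 0.0623 for Grb10. The cause was not tested.

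Without the block, the fit that leaves out the pairing by mouse, 5026 in place of 7936 probe sets were called for Mex3a and 7 in place of 323 for Lgr5; Cdkn1c (limma adjusted p = 0.000284) and Peg3 (0.0128) kept their calls and Grb10 (0.0529) did not. Of the Mex3a calls 60.2% were lower, against 52.6% after quantile normalization and 67.5% after median centring. Signals near the filter level of 4.40, those of Peg3 and Igf2 and the second probe sets among them, are close to the low end of the array.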

Other observations

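Mest and Igf2r had no probe set of their own. The probe set given to both Copg2 and Mest held log2 signals of 5.95 to 6.25 over the 12 arrays and differed by -0.02 with Mex3a (-0.14 to 0.11 over the 3 mice). The probe set given to both Airn and Igf2r held 5.90 to 6.37 and differed by 0.11 (-0.06 to 0.21). Neither value can be assigned to 1 of its 2 genes.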
